A study of Mus musculus with 6 samples.

Results

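The genes described here mark the endothelium of capillaries or encode vascular endothelial growth factors and their receptors: Pecam1, Cd34, Tek, Tie1, Kdr, Flt1, Cdh5, Eng, Vegfa and Vegfb. They were measured in soleus muscle of male mice, 3 samples of estrogen receptor beta knockout mice (BERKO, which lack the nuclear receptor encoded by Esr2) and 3 of wildtype C57BL/6 mice, each on its own Affymetrix mouse array. All probe sets to which the array's annotation gives exactly 1 symbol, that of a member gene, were taken: 13 probe sets for 10 of 10 genes, out of 12422 probe sets without the controls, which cover 8251 genes by a single symbol. Cd34, Tie1 and Flt1 had a pair of probe sets each. The labels give no age for either group and no strain for the knockout, and nothing in them ties samples to separate animals, so the p-values given here cover the variation between these samples, which may be technical.

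Capillaries run along every muscle fibre and are lined by a single layer of endothelial cells, held together by VE-cadherin (Cdh5) and PECAM-1. Muscle fibres secrete VEGF-A, which signals to endothelial cells mainly through the receptor tyrosine kinase VEGFR-2 (Kdr), while VEGFR-1 (Flt1) binds both VEGF-A and VEGF-B and, as a soluble form, also traps them. The receptor TIE2 (Tek) with its partner TIE1 keeps vessels quiescent, and slow, oxidative muscle such as soleus is known for its dense capillary bed.

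Signal intensity is the authors' linear value of a probe set on an array, scaled to a common level, and values of different probe sets cannot be set against each other. The array medians were 36.8 to 39.3 in the knockout and 39.8 to 40.6 in wild type. The slow fibre troponin genes Tnnt1 and Tnni1 gave strong signals on each array, with Tnni1 at 6723 to 8743 in the knockout and 5789 to 7793 in wild type. The Esr2 probe set read 8.4, 3.9 and 6.2 in the knockout and 2.2, 3.2 and 1.3 in wild type, too low to check the genotype. The sample titles carry a prefix of unstated meaning that is shared by replicates 1 and 3 of both groups (4 arrays), while replicate 2 of each group (2 arrays) has another. Replicate 2 of each group stands apart from the rest in several results below, so differences are also given within each prefix.

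No member passed the test for a difference between the genotypes. The intensity filter was the overall median, 39.4, which 12 of the 13 probe sets exceeded on 6 arrays and Flt1 98453_at on 5, so that all were tested with limma. Of these, 0 passed an adjusted p of 0.05 and 0 had an unadjusted p under 0.05, where over all 6369 tested probe sets the shares were 0.0% and 5.24%. Adjusted p-values of the members ran from 0.946 to 0.996. The log2 difference, knockout minus wild type, was above 0 for 6 and below 0 for 7 of them (53.2% of all tested were below 0), with a median of -0.07 against -0.016 over all tested probe sets. For 12 of the 13 the 95% interval of the difference lay within a 2-fold change in either direction. The exception was the probe set 98453_at of Flt1. With 3 against 3 samples the exact permutation test of a single value cannot go below p = 0.1. The sampled tissue is whole muscle, so the number of endothelial cells and the RNA per cell cannot be told apart.

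**Figure D1:**
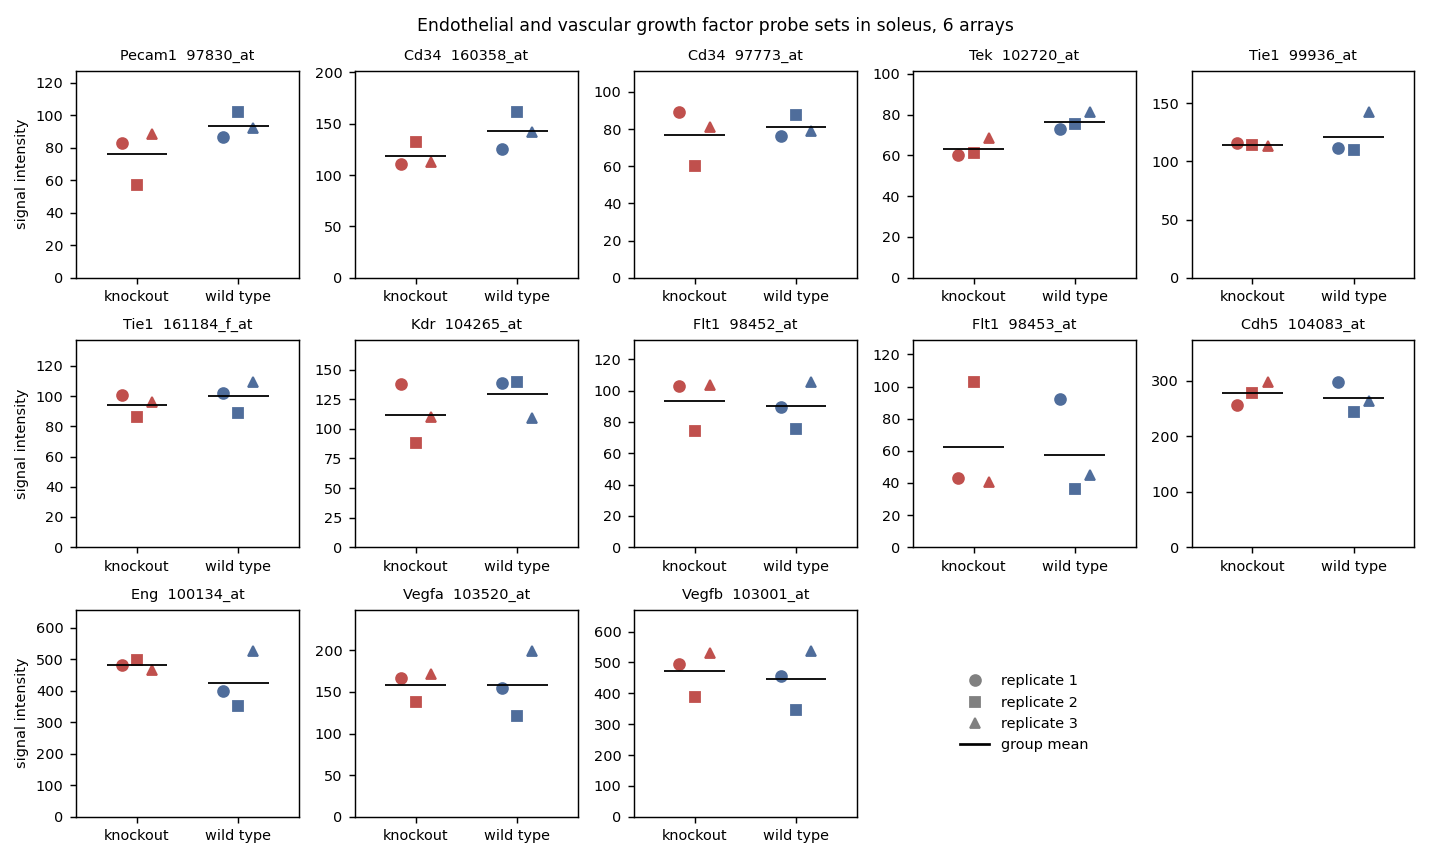
Signal intensity (linear scale from 0) of each of the 13 probe sets on each array, with the knockout left of wild type, marker shapes for the replicate number and lines for group means. The knockout and wild-type points overlap in all panels but that of Tek, where the knockout read 60.3 to 68.6 and wild type 73.2 to 81.3.

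The growth factors had nearly equal means in both genotypes and wide spreads within them. Vegfa, which encodes VEGF-A, the main driver of new capillary growth, read 167.3, 137.8 and 171.2 in the knockout and 154.9, 120.6 and 199.1 in wild type. The wild-type samples held both the lowest and the highest value, and replicate 2 was the lowest of its group in each genotype. The log2 difference was 0.03 ± 0.19 (SE), with a 95% interval of -0.40 to 0.46 (limma adjusted p = 0.996; exact permutation p = 1.0). Vegfb, whose product binds VEGFR-1 and not VEGFR-2, read 495.8, 388.2 and 530.4 in the knockout and 454.9, 346.3 and 536.8 in wild type. Its order over the 6 arrays was the same as that of Vegfa, and its log2 difference was 0.09 ± 0.18 (SE; limma adjusted p = 0.984).

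The VEGF receptors did not differ detectably either. Kdr read 137.9, 87.7 and 110.1 in the knockout and 138.7, 139.9 and 108.8 in wild type. The groups overlapped, and the mean log2 difference of -0.22 ± 0.19 (SE; limma adjusted p = 0.958) was uneven over the replicates. Within the 2 arrays of that prefix the difference was -0.67, and within the other 4 arrays it was 0.0044, a value of the opposite sign. Flt1 was read by 98452_at at 103.1, 74.0 and 103.2 in the knockout and 89.3, 75.2 and 105.7 in wild type, a log2 difference of 0.05 ± 0.19 (SE; limma adjusted p = 0.996). Replicate 2 was again the lowest in each genotype. The other Flt1 probe set, 98453_at, read 43.1, 103.1 and 40.9 in the knockout and 92.1, 36.1 and 44.7 in wild type. A single array in each group was far above the others, knockout replicate 2 and wild-type replicate 1, and the standard error of its log2 difference (0.43) was the largest among the 13. Within the 4 arrays of the larger prefix its difference was -0.61 and within the other 2 it was 1.51. The probe sets of Flt1 did not track each other over the arrays (Pearson's r = -0.43, Spearman's rho = -0.26, exact permutation p = 0.379 for r).

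Among the receptors of the angiopoietin system, Tek was the only member whose groups did not overlap. It encodes TIE2, the receptor for angiopoietins, and read 60.3, 61.3 and 68.6 in the knockout against 73.2, 75.3 and 81.3 in wild type. All 3 knockout values lay below all 3 wild-type values, and the means were 63.4 ± 4.53 and 76.6 ± 4.20 (SD, n = 3 each), at the exact permutation limit of p = 0.1. The groups failed to overlap for 1 of the 13 member probe sets, against 10.7% of all probe sets tested. Its log2 difference was -0.27 ± 0.16 (SE), with a 95% interval of -0.64 to 0.09 (limma adjusted p = 0.958). The difference was -0.26 within the larger prefix and -0.30 within the smaller. Leaving out any array gave -0.33 to -0.23. Tie1, an orphan receptor that pairs with TIE2, read 115.6, 113.9 and 113.5 in the knockout and 111.2, 109.9 and 142.5 in wild type by 99936_at. The knockout samples were nearly equal, and wild-type replicate 3 alone stood above them. Without that sample the log2 difference turned from -0.07 to 0.05. The Tie1 probe set 161184_f_at, whose suffix marks probes that may match related sequences, read 86.1 to 100.4 in the knockout and 89.1 to 109.6 in wild type, a log2 difference of -0.09 ± 0.15 (SE; limma adjusted p = 0.984). The probe sets of Tie1 had r = 0.68 with each other over the 6 arrays (rho = 0.43, exact permutation p = 0.113 for r).

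Eng and Cdh5 had log2 differences above 0, with 95% intervals that spanned 0. Eng, the gene of endoglin, a co-receptor for TGF-beta and BMP ligands on endothelial cells, read 481.7, 496.4 and 465.5 in the knockout and 399.3, 350.4 and 525.9 in wild type. The knockout samples lay close together, inside the much wider range of wild type (SD 15.5 in the knockout and 90.6 in wild type, n = 3 each). Its log2 difference was 0.20 ± 0.15 (SE), with a 95% interval of -0.14 to 0.54 (limma adjusted p = 0.958). It was 0.50 within the smaller prefix, 0.05 within the larger, and 0.07 without wild-type replicate 2. Cdh5, the adhesion molecule of endothelial junctions, varied least over the 6 arrays of all members, with a coefficient of variation of 8.08%. It read 257.1, 279.0 and 298.9 in the knockout and 297.5, 244.8 and 263.6 in wild type. The groups overlapped almost fully, and the log2 difference of 0.05 ± 0.13 (SE) had a 95% interval of -0.23 to 0.34 (limma adjusted p = 0.986).

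Pecam1 and Cd34 had the lowest mean ratios of knockout to wild type beside Tek. Pecam1, an adhesion molecule of endothelial cells and platelets, read 82.8, 57.2 and 88.5 in the knockout and 86.4, 101.9 and 91.8 in wild type. Knockout replicate 2 was far below the other 5 arrays and wild-type replicate 2 was the highest. The log2 difference was -0.32 ± 0.19 (SE), with a 95% interval of -0.75 to 0.12 (limma adjusted p = 0.958). It was -0.12 without knockout replicate 2 and -0.06 within the 4 arrays of the larger prefix, against -0.83 between the 2 arrays of the smaller prefix. Cd34, a surface sialomucin of capillary endothelium that muscle progenitor and stromal cells also carry, read 110.5, 132.1 and 112.9 in the knockout and 125.5, 161.4 and 141.7 in wild type by 160358_at. Only wild-type replicate 1 fell inside the knockout range, and replicate 2 was the highest of each group. That log2 difference was -0.27 ± 0.15 (SE; limma adjusted p = 0.946, the lowest among the members), and it stood at -0.26 and -0.29 within the larger and the smaller prefix. The other Cd34 probe set, 97773_at, read 89.2, 60.4 and 81.3 in the knockout and 76.2, 87.5 and 79.0 in wild type. It was lowest in knockout replicate 2 and did not track the first (Pearson's r = -0.05, Spearman's rho = -0.26, exact permutation p = 0.932 for r). Its log2 difference was -0.09 over all arrays, 0.13 within the larger prefix and -0.53 within the smaller.

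**Figure D2:**
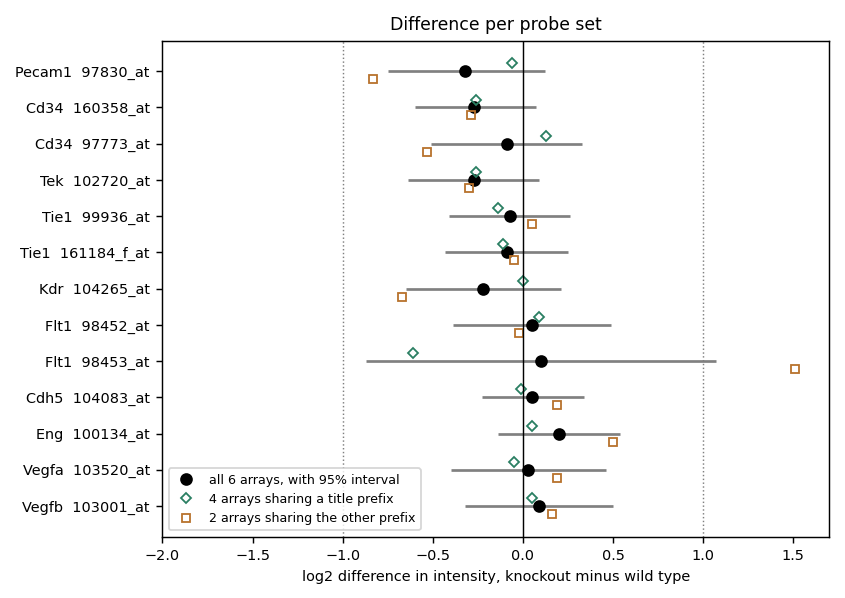
Log2 difference in intensity, knockout minus wild type, for each probe set over all 6 arrays with its 95% interval from limma, and within each title prefix (2 against 2 arrays and 1 against 1, no interval). Each interval spans 0, and the values of the 2 prefixes lie far apart for Pecam1 (-0.06 and -0.83) and Flt1 98453_at (-0.61 and 1.51) but close together for Tek (-0.26 and -0.30); dotted lines mark a 2-fold change.

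Across the 6 arrays Vegfa, Vegfb and the Flt1 probe set 98452_at followed each other closely, while most endothelial markers did not move as a block. Over the 75 pairs of member probe sets from different genes, Pearson's r of log2 intensity ran from -0.84 to 0.96 with a median of 0.16. It was above 0 in 48 pairs (64.0%) and above 0.8 in 7 (9.33%). Over all pairs of tested probe sets from different genes, the median was 0.0, with 3.18% above 0.8. Probe sets share arrays, so the pairs are not independent. Of the 75 pairs 7 had an exact permutation p under 0.05 for r, and 0 had one under 0.05 after Benjamini-Hochberg adjustment over the 75 pairs. The smallest p that the 720 pairings of 6 arrays allow is 0.00139, which gives the smallest adjusted value reached, 0.104. Without knockout replicate 2 the median r was -0.04, while leaving out any other array gave 0.11 to 0.27.

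**Figure D3:**
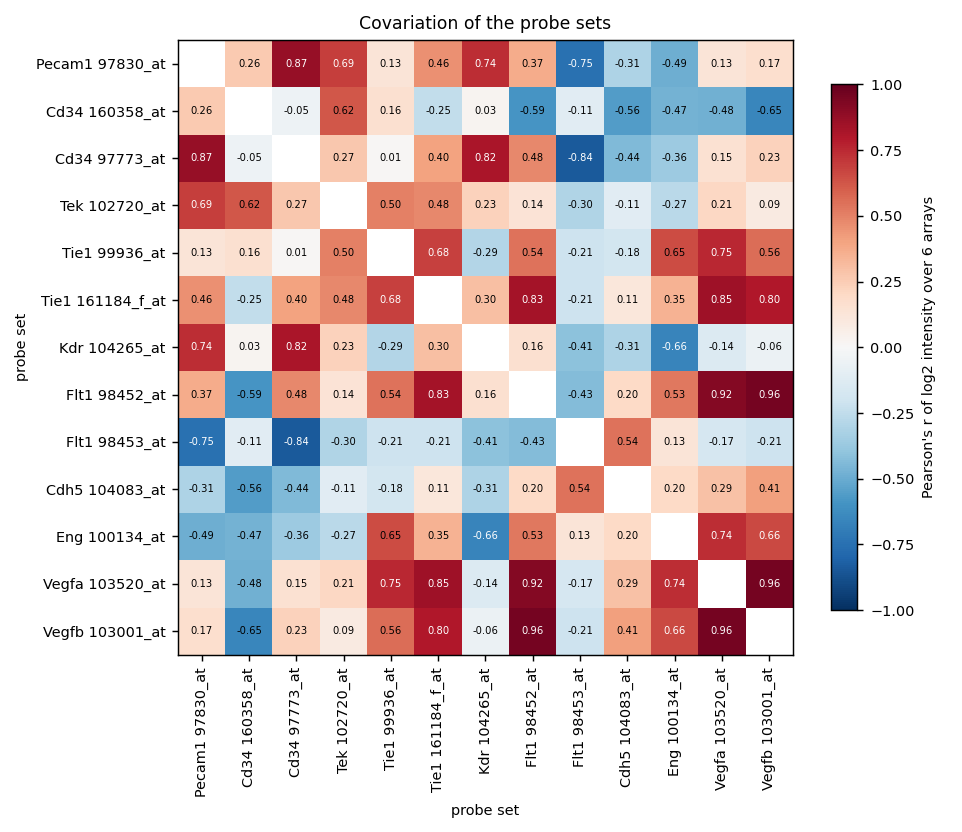
Pearson's r of log2 intensity over the 6 arrays for each pair of probe sets (red above 0, blue below 0, the diagonal left empty). The block of Vegfa, Vegfb and Flt1 98452_at holds r of 0.92 to 0.96, and Pecam1, Cd34 97773_at and Kdr form another with r of 0.74 to 0.87. Tie1 161184_f_at had r of 0.80 to 0.85 with the first block.

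The pair of growth factor genes was the closest in rank. Vegfa and Vegfb had r = 0.96 (exact permutation p = 0.00139, adjusted p = 0.104) and rho = 1.00 (exact permutation p = 0.00278, adjusted p = 0.208). Without the 2 arrays farthest from the median of Vegfa, r was 0.99, and without those farthest from the median of Vegfb, replicate 2 of both groups, it was 0.84. Flt1 98452_at had r = 0.96 with Vegfb (exact permutation p = 0.00694, adjusted p = 0.173; rho = 0.94, p = 0.0167, adjusted p = 0.313) and r = 0.92 with Vegfa (exact permutation p = 0.00417, adjusted p = 0.156; rho = 0.94, p = 0.0167, adjusted p = 0.313). Without the 2 arrays farthest from the median of Flt1, which were replicate 2 of both groups, these were 0.92 and 0.78. These 3 pairs are described because they had the highest r. Vegfa, Vegfb and Flt1 98452_at were each lowest on the 2 arrays of the smaller prefix. As deviations from the prefix means, r was 0.88 for Vegfa and Vegfb, 0.74 for Flt1 and Vegfb, and 0.65 for Flt1 and Vegfa. Over the 4 arrays of the larger prefix alone, r was 0.84, 0.92 and 0.78 for the same pairs, given as values without a test, and the smaller prefix holds 2 arrays. As deviations from the group means, r was 0.97, 0.96 and 0.92 for the same pairs. Tie1 161184_f_at had r = 0.85 with Vegfa (exact permutation p = 0.0347, adjusted p = 0.447), 0.83 with Flt1 98452_at (p = 0.0556, adjusted p = 0.511) and 0.80 with Vegfb (p = 0.0694, adjusted p = 0.511). Those r were 0.95, 0.95 and 0.96 as deviations from the group means, but 0.63, 0.10 and 0.11 over the 4 arrays of the larger prefix. Of 5707 other tested probe sets with 1 symbol, 12 (0.21%) had an r with Vegfa at least as high as that of Vegfb, and 59 (1.03%) one at least as high as that of Flt1 98452_at. The other Flt1 probe set, 98453_at, had r = -0.17 with Vegfa and -0.21 with Vegfb. It was highest on knockout replicate 2 (103.1) and lowest on wild-type replicate 2 (36.1).

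**Figure D4:**
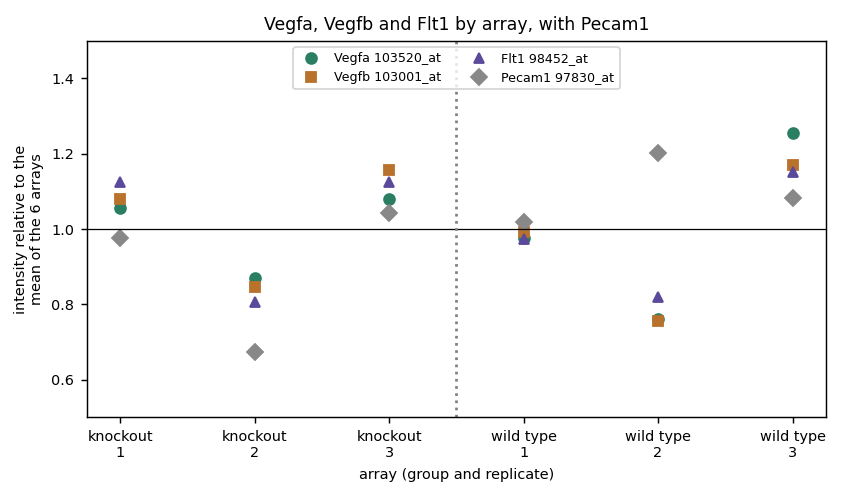
Intensity of Vegfa, Vegfb, Flt1 98452_at and Pecam1 on each array relative to the mean of the 6 arrays (vertical axis from 0.5 to 1.5), with knockout arrays left of wild type. The first 3 fall together on replicate 2 of both groups, where Vegfa read 137.8 and 120.6, while Pecam1 was lowest in knockout replicate 2 (57.2) and highest in wild-type replicate 2 (101.9).

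Vegfa, Vegfb and Flt1, whose signals went together, are shown by the 250 bases before their annotated start (RefSeq, GRCm38.p6), since the promoter is where shared motifs would be looked for. Capitals mark GGGCGG, the GC box of SP1 factors, on either strand. Among the motifs given below, it was the only one that all 3 windows shown held. The upstream start of Vegfa (chr17:46032378-46032627, minus strand) held 2 matches, Vegfb (chr19:6987652-6987901, minus strand) held 4 and Flt1 (chr5:147726012-147726261, minus strand) held 3.
Vegfa: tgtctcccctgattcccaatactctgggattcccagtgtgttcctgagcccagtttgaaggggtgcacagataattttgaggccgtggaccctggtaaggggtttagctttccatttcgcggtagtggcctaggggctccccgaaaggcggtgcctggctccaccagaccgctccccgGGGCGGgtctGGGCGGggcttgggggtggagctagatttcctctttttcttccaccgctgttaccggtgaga
Vegfb: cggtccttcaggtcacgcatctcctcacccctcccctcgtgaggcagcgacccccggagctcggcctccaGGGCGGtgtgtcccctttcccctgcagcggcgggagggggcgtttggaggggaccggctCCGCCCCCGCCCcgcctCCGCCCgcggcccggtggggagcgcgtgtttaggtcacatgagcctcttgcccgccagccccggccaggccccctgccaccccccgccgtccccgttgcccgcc
Flt1: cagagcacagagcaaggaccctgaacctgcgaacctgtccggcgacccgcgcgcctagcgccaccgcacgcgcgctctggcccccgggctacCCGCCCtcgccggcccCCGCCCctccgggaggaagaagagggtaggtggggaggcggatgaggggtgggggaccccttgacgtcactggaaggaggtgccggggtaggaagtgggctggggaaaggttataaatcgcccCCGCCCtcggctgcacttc
The table gave 9 such windows for 8 of the 10 genes, Vegfa having another start. GGGCGG was in 5 of the 9 (Vegfa at both starts, Vegfb, Flt1 and Kdr) and in 32.7% of all 32851 windows. Kdr held 2 matches, while its r was -0.14 with Vegfa, -0.06 with Vegfb and 0.16 with Flt1 98452_at. Whether the motif has a part in the covariation was not tested. A core of the hypoxia response element, ACGTG or GCGTG, was in 4 of the 9 (Kdr, Flt1, Vegfb and the downstream start of Vegfa) and in 38.6% of all. The upstream start of Vegfa, shown above, held 0 of them. AGGAAG, an ETS factor core, was in 4 (Cd34, Eng, Tie1 and Flt1) and in 29.5% of all, and the longer ETS motif CCGGAAGT was in 0 and in 2.88%. AGGTCA, an arm of the estrogen response element, was in 1 (Vegfb) and in 14.0% of all, and the full element, GGTCA and its reverse complement with 3 bases between them, was in 0 and in 0.0639%. All motifs were read on both strands, AGGTCA and the full element share bases, as do the ETS motifs, and a match is only a description of these letters.

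A further set, Pecam1, Cd34 97773_at and Kdr, rested on replicate 2. Pecam1 and Cd34 97773_at had r = 0.87 (exact permutation p = 0.0708, adjusted p = 0.511; rho = 0.37, p = 0.497, adjusted p = 0.956). Cd34 97773_at and Kdr had r = 0.82 (exact permutation p = 0.0417, adjusted p = 0.447; rho = 0.54, p = 0.297, adjusted p = 0.956), and Pecam1 and Kdr r = 0.74 (exact permutation p = 0.0875, adjusted p = 0.528; rho = 0.49, p = 0.356, adjusted p = 0.956). All 3 were lowest in knockout replicate 2. Without the arrays farthest from the median of Pecam1, replicate 2 of both groups, r was -0.65 for Pecam1 with Cd34 and -0.85 for Pecam1 with Kdr, so these relations rest on those arrays. For Cd34 97773_at and Kdr, r was 0.23 without the 2 arrays farthest from the median of Kdr, again replicate 2 of both groups, and this relation too rests on them. Without the 2 arrays farthest from the median of Cd34 97773_at, knockout replicates 1 and 2, r was 0.22 with Kdr but 0.91 with Pecam1. The lowest r of all pairs was that of Cd34 97773_at and Flt1 98453_at (r = -0.84, exact permutation p = 0.00972, adjusted p = 0.182; rho = -0.83, p = 0.0583, adjusted p = 0.625), and it was -0.82 without the 2 arrays farthest from the median of Cd34. Without the 2 arrays farthest from the median of Flt1 98453_at, knockout replicate 2 and wild-type replicate 1, it was -0.46, and over the 4 arrays of the larger prefix -0.65.

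Averaged over the 2 arrays of the smaller prefix, most member signals were lower than on the other 4. This held for the mean of 11 of the 13 probe sets, against 52.3% of all tested probe sets, and for 4 (Vegfa, Vegfb, Flt1 98452_at and Tie1 161184_f_at) both arrays lay below the other 4, against 9.42% of all. For 0 both lay above the other 4, against 8.29% of all. Taken singly, knockout replicate 2 lay below the 6-array mean for 9 of the 13 and wild-type replicate 2 for 8. Yet wild-type replicate 2 was the highest of the 6 arrays for Pecam1 (101.9), Cd34 160358_at (161.4) and Kdr (139.9), and knockout replicate 2 for Flt1 98453_at (103.1). Replicate 2 was the lowest of its group in both genotypes for 4 of the 13. Knockout replicate 2 was the lowest of all 6 arrays for 5 of the 13, against 21.6% of all tested probe sets. Wild-type replicate 2 was so for 6, against 18.4%. For the counts below the 6-array mean and lowest within a group, no share over all probe sets was computed. The ratio of means between these 2 arrays and the other 4 was 0.746 for Vegfa, 0.728 for Vegfb and 0.744 for Flt1 98452_at, and 1.20 for Cd34 160358_at. Among 19 tested genes of other vessel wall endothelium, 13 had a lower mean on these 2 arrays, and for 2 both arrays lay below the other 4. Sums given here cover all genes of a list on the array, tested or not, and weigh bright probe sets most. For the 32 such vessel wall genes the sum was 0.864 times that of the other 4 arrays. Lpl alone gave 2402.7 of 5112 in knockout replicate 2 and 2396.9 of 5310 in wild-type replicate 2, and read 2617.8 to 3428.1 on the other 4. Among 25 tested genes of the other angiogenic ligands, receptors and regulators 12 had a lower mean, and for 2 both arrays lay below the other 4. The summed intensity of the 47 on the array was 0.992 times that of the other 4 arrays. The summed intensity of muscle fibre markers was 1.09 times that of the other 4 arrays, with 3 of 9 tested genes lower. That of red cell and platelet markers was 0.684 times, with 3 of 3 tested genes lower and wild-type replicate 1 highest at 4806 (the other 5 arrays at 1782 to 2430). The tested genes were Alas2, Hba-a1 and Slc4a1, all of red cells. Hba-a1 alone gave 2029.4 of 2168 in knockout replicate 2, 1662.2 of 1782 in wild-type replicate 2 and 4499.9 of 4806 in wild-type replicate 1. The summed intensity of adipocyte markers was 1.30 times, with 0 of 3 tested genes lower. It was 330 in knockout replicate 2 and 545 in wild-type replicate 2, and 290 to 439 on the other 4 arrays. The part of these cell types in the member signals was not tested.

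The genes whose pattern over the 6 arrays was most like that of 2 members were named by r of log2 intensity among 5695 tested probe sets of other genes. For Cdh5 they were Napa (r = 0.986), Srpr (0.975), Gtf3a (0.971), Myorg (0.966) and D2hgdh (0.960). For Vegfa they were Ctsd (0.990), Adcy4 (0.982), Limd1 (0.979), Rasa4 (0.978) and Gpaa1 (0.976). Ctsd, the lysosomal protease cathepsin D, read 1486.1, 1269.8 and 1542.3 in the knockout and 1337.8, 1094.2 and 1684.6 in wild type, low on replicate 2 of both groups like Vegfa. Limma gave none of these 10 genes an adjusted p below 0.984 for the genotype. The highest r among so many probe sets over 6 arrays is high by selection.

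Other vascular genes gave no call in either direction. Of 41 further genes of vessel wall endothelium, 32 were on the array and 19 were tested, of which 4 had a log2 difference above 0 and 15 below 0, with a median of -0.04 (-0.016 over all probe sets). None passed the adjusted threshold, and 1 had an unadjusted p under 0.05, against 5.24% of all tested probe sets in either direction (2.43% downward). That gene was Klf4, a transcription factor of quiescent endothelium and of many other cells, at 202 ± 25.3 in the knockout and 295 ± 87.6 in wild type (SD, n = 3 each), followed by Thbd, thrombomodulin (59.5 ± 8.85 and 74.7 ± 14.9), and Cldn5, the tight junction claudin of endothelium (62.7 ± 6.94 and 75.4 ± 7.72). Fabp4, a fatty acid binding protein of capillary endothelium and adipocytes, averaged 70.4 ± 30.9 in the knockout and 92.3 ± 14.6 in wild type. The 4 genes had limma adjusted p-values of 0.923 to 0.958.

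Of 52 other angiogenic ligands, receptors and regulators 47 were on the array and 25 tested, 9 above 0 and 16 below 0, with a median log2 difference of -0.08. Here too 0 passed, and 1 had an unadjusted p under 0.05, against 5.24% of all tested probe sets in either direction (2.43% downward). It was the matricellular protein gene Ccn1, at 68.2 ± 18.5 in the knockout and 98.9 ± 13.5 in wild type (SD, n = 3 each, limma adjusted p = 0.923). Angptl4, an inhibitor of lipoprotein lipase, had a log2 difference of -0.60 ± 0.27 (SE), and Efnb2, the ephrin of arterial endothelium, -0.49 ± 0.25. Thbs2, the gene of the angiogenesis inhibitor thrombospondin 2, read 57.8 to 70.4 in the knockout and 79.1 to 84.2 in wild type, groups that did not overlap (log2 difference -0.32 ± 0.16; limma adjusted p = 0.926). Of the 25 genes the groups did not overlap for 2 downward, against 5.23% of all tested probe sets, and for 1 upward, against 5.45%. The others, named after their values were seen, were Smad1, a transducer of BMP signals, at 164.8 to 169.6 in the knockout and 180.7 to 255.8 in wild type (log2 difference -0.29 ± 0.16; limma adjusted p = 0.937), and Acvrl1, the endothelial receptor ALK1, at 200.6 to 240.3 in the knockout and 159.9 to 200.2 in wild type (0.24 ± 0.14; limma adjusted p = 0.958). Among the 19 vessel wall genes the groups overlapped for 19.

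Vegfa is a classic target of the hypoxia-inducible factors, so the genes of that response were read beside it. Of 24 such genes 21 were on the array and 18 were tested, 11 above 0 and 7 below 0, with a median log2 difference of 0.04. Of these, 0 had an unadjusted p under 0.05, against 5.24% of all tested probe sets. Pdk1, the kinase that limits pyruvate oxidation, read 232.1 to 259.8 in the knockout and 197.1 to 231.2 in wild type, and Egln2, an oxygen-sensing prolyl hydroxylase, 357.6 to 386.3 in the knockout and 320.2 to 336.6 in wild type. In both the knockout lay above wild type without overlap, as for 5.45% of all tested probe sets (limma adjusted p = 0.937 and 0.958). Pfkfb3, an activator of glycolysis in sprouting endothelium, had a log2 difference of -0.60 ± 0.33 (SE), and Esrra, a nuclear receptor that drives Vegfa in muscle with the coactivator PGC-1alpha, 0.21 ± 0.14 (limma adjusted p = 0.939 and 0.958).

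Markers of the other cells in a muscle sample gave no call, and those of the fibres had the highest median. Of 9 tested muscle fibre genes 9 had a log2 difference above 0, with a median of 0.18. An unadjusted p under 0.05 was found for 4 (Mb, Actn2, Acta1 and Myl3), against 5.24% of all tested probe sets in either direction (2.81% upward). None passed over all probe sets (limma adjusted p = 0.923 for these 4). The summed intensity of all 10 muscle fibre genes on the array was 62401 to 66146 in the knockout and 49872 to 61381 in wild type, without overlap. Wild-type replicate 1 was the lowest at 49872, with replicates 2 and 3 at 61381 and 57833. Single probe sets lay higher without overlap in 5.45% of all tested, and no such share was computed for sums. The part of this sum in the values of the vascular genes was not tested. The 10 tested pericyte and smooth muscle genes had a median of -0.07 (4 above 0, 6 below), with Smtn at 0.48 ± 0.23 (SE). The 11 of that list on the array summed to 2040 to 2290 in the knockout and 2080 to 2223 in wild type. The medians were -0.02 for 2 lymphatic endothelial genes (1 above 0, 1 below), -0.15 for 3 red cell genes (0 above, 3 below), -0.02 for 7 macrophage and leukocyte genes (3 above, 4 below), 0.02 for 8 fibroblast and progenitor genes (5 above, 3 below) and -0.06 for 3 adipocyte genes (1 above, 2 below). Adipoq, the adipocyte hormone adiponectin, averaged 88.7 ± 27.3 in the knockout and 178 ± 84.2 in wild type (SD, n = 3 each). It was the 1 gene of these lists with an unadjusted p under 0.05 (limma adjusted p = 0.923), against 5.24% of all tested probe sets in either direction (2.43% downward). In each of these lists 0 genes passed the adjusted threshold.

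**Figure D5:**
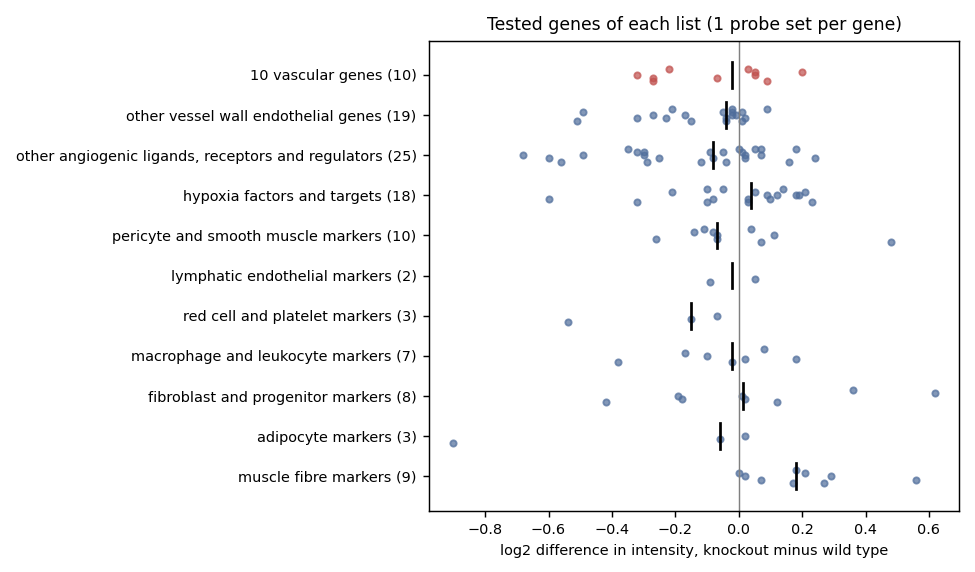
Log2 difference in intensity, knockout minus wild type, of each tested gene in the 10 vascular genes and in 10 other lists, with 1 probe set per gene, the number of genes in brackets and the median as a bar. The medians lie between -0.15 (red cell and platelet markers) and 0.18 (muscle fibre markers), and that of the 10 vascular genes is -0.02.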

How the data were processed

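The authors deposited a linear signal intensity for each probe set on each array. They computed it by steps not given in the sources used here. Trimmed by 2% at either end, the array means were 100.07 to 100.08, so that scaling was kept, and no probe-level values were used. The 66 controls among 12488 probe sets were left out. The array annotation gave 1 symbol to 10833, several to 396 and none to 1193, and a RefSeq table (GRCm38.p6) changed 0 symbols.

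Values under the 20th percentile (7.8) were set to it and taken to log2. The 6369 probe sets that 3 or more arrays put above the overall median (39.4) were tested. The genotypes were compared by limma 3.58.1 (R 4.3.3, eBayes with trend, two-sided), and Benjamini-Hochberg adjustment covered the whole table. The number of arrays limits the precision, with a median SE of 0.18 (log2). Correlations used exact permutation of pairings, two-sided (Python 3.11.15). Figures used matplotlib 3.10.9. The limma step was tested on simulated data.

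Genes named were all members, the 5 genes most like Cdh5 and Vegfa, and Esr2. Up to 4 genes per further list were named by smallest p. These were all 4 in the vascular, hypoxia and muscle fibre lists and fewer in the other cell marker lists. Lists were read with 1 probe set per gene, the brightest, and summed intensities cover all genes of a list on the array, tested or not. Tnnt1, Tnni1 and the pairs and genes singled out by prefix were chosen after their values were seen. The members and lists were chosen with earlier results of these data known. The alternatives were other normalizations, floors, filters and variance models, the title prefix or adjacent title numbers as a block, and leaving out arrays.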

Additional observations from a re-analysis of the deposited data

How the results depend on the processing

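The count of member probe sets called was 0 under all 18 alternatives, with a lowest adjusted p of 0.645 (limma). Over the whole array 0 probe sets passed, except 1 without the filter (Hoxd1), 1 with adjacent title numbers as a replicate block (Myh4), and 0 to 1 without each array in turn (Tuba1a, without knockout replicate 1). Deviations of samples with adjacent numbers correlated at -0.005, 0.035 and -0.003, so the numbers were not taken as pairs. Of 230 member values under the alternatives 19 changed sign, all of them over the 4 arrays of the larger prefix or without a single array, and 5 of the 13 probe sets never did: Pecam1, Cd34 160358_at, Tek, Tie1 161184_f_at and Eng. Over those 4 arrays the log2 difference was 0.13 for Cd34 97773_at, 0.0044 for Kdr, -0.61 for Flt1 98453_at, -0.01 for Cdh5 and -0.05 for Vegfa. Leaving out single arrays gave -0.20 to 0.08 for Cd34 97773_at, -0.14 to 0.05 for Tie1 99936_at, -0.07 to 0.21 for Flt1 98452_at, -0.34 to 0.50 for Flt1 98453_at, -0.01 to 0.13 for Cdh5, -0.15 to 0.21 for Vegfa and -0.08 to 0.24 for Vegfb. The cause was not tested. For Pecam1 these values were -0.44 to -0.12, for Kdr -0.38 to -0.06 and for Eng 0.07 to 0.36.

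The median pairwise r of the members, 0.16, was 0.09 after quantile normalization, 0.02 with median scaling (which moved the median difference of all probe sets to 0.051), 0.13 with cyclic loess, 0.20 with the stricter filter (9 probe sets), 0.09 with Spearman's rho, 0.18 on deviations from group means, 0.17 with 1 probe set per gene, 0.18 over the 4 arrays of the larger prefix (replicate 2 of both groups left out), and -0.04 to 0.27 without single arrays. As deviations from prefix means, an alternative added after seeing the data, it was 0.04. Under the 3 other normalizations, the other floors, log2(value + 16), the 4 arrays of the larger prefix, single arrays left out and deviations from prefix means, all run for these pairs afterwards, Pearson's r of Vegfa and Vegfb ran from 0.84 to 0.99, of Flt1 98452_at and Vegfb from 0.74 to 0.98, and of Flt1 98452_at and Vegfa from 0.65 to 0.95. Flt1 98453_at, at 36.1 to 103.1, lay below the filter on 1 array, and the deposited values give no detection call.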
